A study of Mus musculus with 12 samples.

Results

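The genes described are 6 matrix metalloproteinases (Mmp2, Mmp3, Mmp9, Mmp13, Mmp14 and Mmp19) and 3 tissue inhibitors of metalloproteinases (Timp1, Timp2 and Timp3). They were taken by name, through their Ensembl identifiers, from the 14496 genes of the deposited table, and all 9 were present and passed the filter on low values. RNA was measured in 12 tumors that the mouse renal carcinoma line Renca formed under the skin of BALB/C mice. Tumor and stroma cells were lysed as 1 sample per tumor, 14 days after inoculation. In the IK group (n = 6) the mouse also carried a tumor in the kidney, and in the SC group (n = 6) the subcutaneous tumor grew with none there. The study asked whether the transcriptome of the subcutaneous tumor differs when a tumor it calls immunosuppressive grows at that distant site. All tumors come from 1 cell line, and the labels do not say whether each came from its own mouse, so the p-values speak of the spread among these samples, which may be technical in part.

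Matrix metalloproteinases are zinc-dependent endopeptidases that cut collagens, gelatin, laminins, proteoglycans and other proteins of the extracellular matrix, and that also release growth factors and cytokines held there. Most are secreted as inactive proenzymes, which need a proteolytic cut, and TIMPs bind the active site and block it. In solid tumors much of this system is made by fibroblasts, endothelium and infiltrating myeloid cells as well as by the tumor cells. A whole-tumor library mixes all of these. Levels of transcripts say nothing of how much proenzyme was activated.

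The promoters of Mmp3 and Mmp13 are shown first because these neighbors on chromosome 9 share promoter motifs and their levels had r = 0.05. The promoters of Mmp14 and Timp3 are shown because these genes varied most alike from tumor to tumor. Whether shared motifs go with shared variation was not tested. RefSeq's table gave a promoter for 6 of the 9 genes. Each sequence is the 120 bases before the annotated start, 5′ to 3′ on the gene's strand, in build GRCm38.p6 (the deposited counts used mm9). Mmp3 is from chr9:7445702-7445821 (plus strand), Mmp13 from chr9:7272394-7272513 (plus), Mmp14 from chr14:54431478-54431597 (plus) and Timp3 from chr10:86300292-86300411 (plus). Capitals mark matches to 3 motifs, each searched on both strands. The AP-1 site, bound by Fos and Jun proteins, was searched as TGANTCA. The TATA box was searched with the letters TATAAA. The GC box, which proteins of the Sp family bind, was searched with the letters GGGCGG.
Mmp3: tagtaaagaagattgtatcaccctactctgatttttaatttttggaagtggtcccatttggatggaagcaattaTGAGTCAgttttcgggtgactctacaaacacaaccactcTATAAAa
Mmp13: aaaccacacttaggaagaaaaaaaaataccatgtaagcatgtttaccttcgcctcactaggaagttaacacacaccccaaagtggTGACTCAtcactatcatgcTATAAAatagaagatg
Mmp14: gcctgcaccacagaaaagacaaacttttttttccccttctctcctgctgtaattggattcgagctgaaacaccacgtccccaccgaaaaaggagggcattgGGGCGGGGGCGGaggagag
Timp3: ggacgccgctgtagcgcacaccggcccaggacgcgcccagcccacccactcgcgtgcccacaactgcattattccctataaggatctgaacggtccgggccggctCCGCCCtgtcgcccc
Mmp3 and Mmp13 each held 1 AP-1 match and 1 TATA match in the 250 bases before the start and no GC box. The TATA letters began 7 (Mmp3) and 16 (Mmp13) bases before the annotated start, and the AP-1 letters 46 and 35 bases before it. Mmp14 held 2 adjoining GC boxes, Timp1, Timp2 and Timp3 held 1 each, and none of these 4 held an AP-1 or TATA match. Over the same 250 bases of all 32851 annotated starts, 6.75% held AP-1, 12.4% the TATA letters and 32.7% a GC box. These matches are letters in a reference sequence, not measured binding.

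Levels between genes are compared per kilobase of exon, as log2 CPM per kb, with lengths from the GENCODE M21 annotation. Timp2, an inhibitor that also takes part in activating pro-MMP2 at the cell surface, was the most abundant, at 6.91 to 7.13 over the 12 tumors. Timp1, a secreted inhibitor, followed at 5.59 to 6.42 and did not overlap Timp2. The gelatinase Mmp2 (4.32 to 5.92), the membrane-anchored Mmp14 (4.29 to 5.24), the stromelysin Mmp3 (3.31 to 5.34) and the collagenase Mmp13 (3.58 to 4.35) came next. Each of these overlapped its neighbor in that order, Timp1 and Mmp2 included. Below a gap lay Mmp19 (2.49 to 3.09), Timp3 (1.08 to 2.97) and the gelatinase Mmp9 (1.60 to 2.38), which overlapped one another in that order. Tumors held 53312559 to 66142468 reads over the table's genes, recovered from the log2 values. At least 573 reads stood behind every value, the fewest for Mmp9, so counting error was small beside the spread between tumors.

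No gene of the 9 differed between the groups after adjustment. With limma over 14008 tested genes, the adjusted p-values of the 9 ran from 0.432 (Mmp9) to 0.952 (Mmp19). Over all tested genes none passed either (0 genes, 0.0%), and 1608 (11.5%) had an unadjusted limma p under 0.05, 5.86% higher and 5.62% lower in the IK group. Among the 9 genes, 1 did (Mmp9, higher) and 0 were lower, a share near that background. The background itself rested on single tumors: 843 genes had such a p without SC replicate 5, 861 without IK replicate 4, 1070 without IK replicate 6, 2919 without SC replicate 6 and 3416 without IK replicate 2. Means were lower in the IK group for 7 of the 9, against 46.7% of all tested genes. They were higher for 2 of the 9 (Mmp9 and Mmp19), against 53.3%. Among the 7, Mmp2, Mmp3, Mmp14, Timp1 and Timp3 varied together (pairwise r from 0.82 to 0.97), so these are not 7 independent results. The median difference of the 9 was -0.07 log2, against 0.01 over all genes. Values of the 2 groups overlapped for each of the 9, and groups without overlap made up 0.478% of all tested genes.

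**Figure D1:**
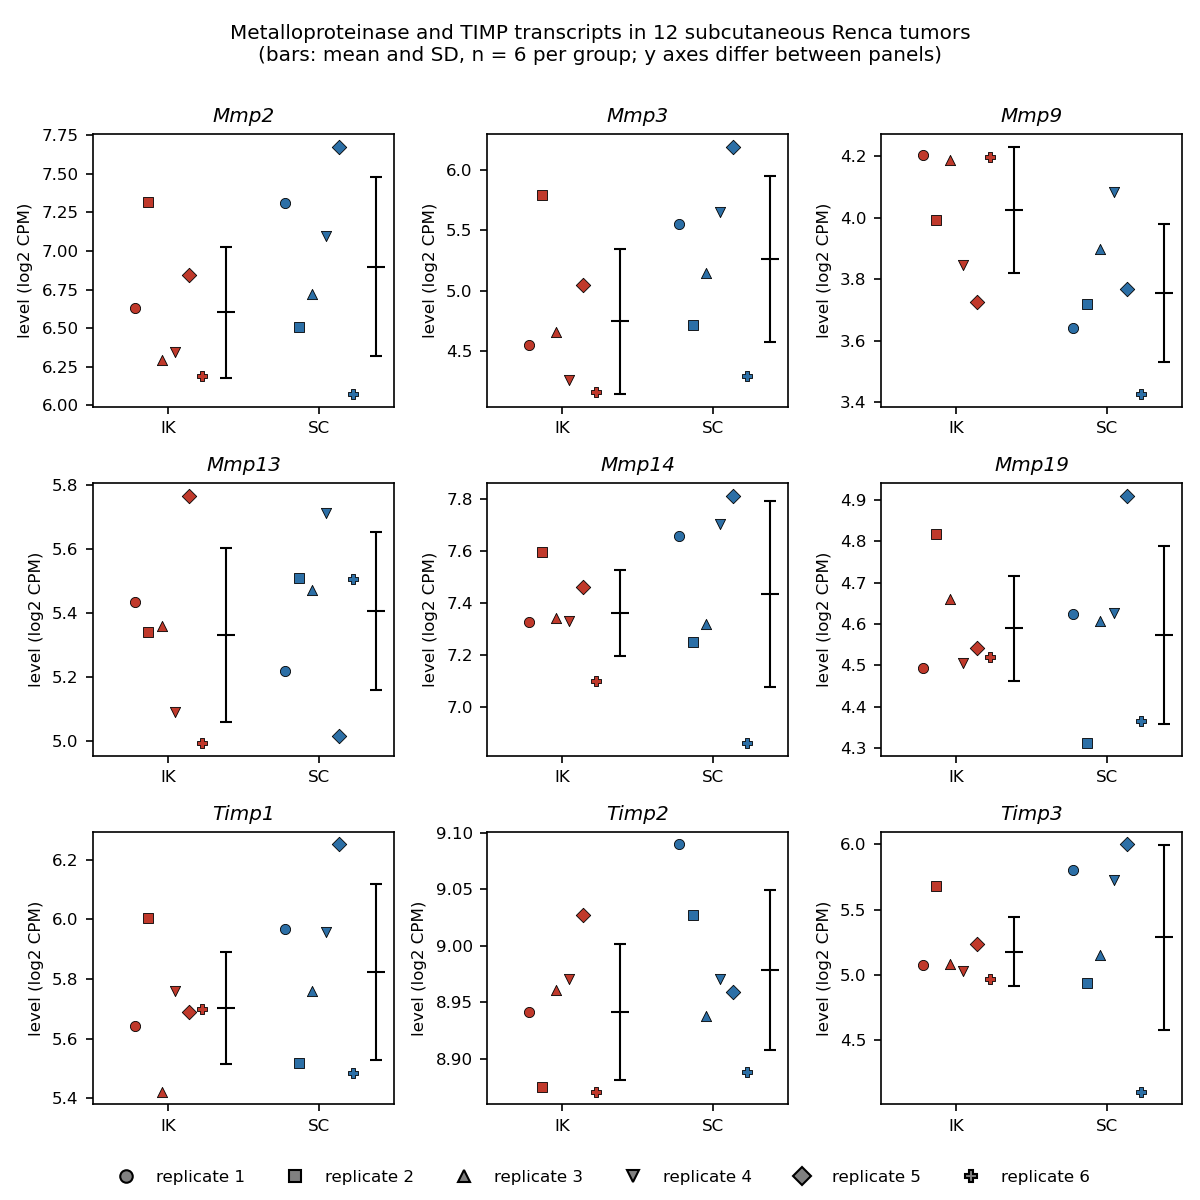
Level of each gene (log2 CPM, y axes differ) in the 12 tumors by group, with the mean and SD beside the points and 1 symbol per replicate number. SC replicate 5 is the highest tumor in 6 of the 9 panels and SC replicate 6 the lowest in 4, and the groups overlap in every panel.

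The gelatinases Mmp2 and Mmp9 cleave denatured collagen and type IV collagen of basement membranes. The mean of Mmp2 was lower and that of Mmp9 higher in the IK group, neither past the adjusted threshold. Mmp2 (ENSMUSG00000031740) stood at 6.19, 6.49 and 7.32 log2 CPM in the IK group (lowest, median, highest) and at 6.07, 6.91 and 7.68 in the SC group. Of the 6 IK tumors, 5 lay below the SC median, and replicate 2 alone lay above it. The mean difference was -0.29 log2 (SE 0.26, 95% interval -0.86 to 0.27, exact two-sided permutation p = 0.336), and it went from -0.46 without SC replicate 6 to -0.14 without SC replicate 5. Mmp9 (ENSMUSG00000017737), which neutrophils also store in granules, stood at 3.73, 4.09 and 4.20 in the IK group and at 3.43, 3.74 and 4.08 in the SC group. In this gene 5 of 6 IK tumors lay above the SC median. The mean was 1.21-fold higher in the IK group (0.27 log2, SE 0.11, 95% interval 0.02 to 0.52), with an unadjusted limma p of 0.0349, an adjusted p of 0.432 and an exact two-sided permutation p of 0.0563. Without single tumors the Mmp9 difference was 0.20 to 0.34, and in 6 of these 12 limma fits its unadjusted p was above 0.05. With sample weights it was 0.17 (limma, adjusted p = 0.350).

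Mmp3, which cleaves proteoglycans and laminin and activates other pro-MMPs, had the widest range of the 9 genes. It stood at 4.16, 4.61 and 5.79 in the IK group and at 4.30, 5.35 and 6.19 in the SC group, a 4.07-fold span over all tumors. IK replicate 2 was the only IK tumor above the SC median. The Mmp3 mean was 1.43-fold higher in the SC group (-0.51 log2, SE 0.33, limma, adjusted p = 0.511). The difference lay at -0.72 without IK replicate 2 and at -0.33 without SC replicate 5. Mmp13, the main interstitial collagenase of the mouse, stood at 4.99, 5.35 and 5.77 in the IK group and at 5.02, 5.49 and 5.71 in the SC group. Its difference was -0.07 (SE 0.14, limma, adjusted p = 0.818), and it went from -0.16 without IK replicate 5 to -0.01 without IK replicate 6. The tumor with the most Mmp3, SC replicate 5, had the lowest Mmp13 of the SC group.

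Mmp14 (MT1-MMP) is the cell-surface protease that activates pro-MMP2 together with TIMP2. It stood at 7.10, 7.34 and 7.60 in the IK group and at 6.86, 7.49 and 7.81 in the SC group. The difference was -0.07 (SE 0.14, limma, adjusted p = 0.830), and the 6 SC tumors spread more widely (SD 0.36) than the 6 IK tumors (SD 0.16). That difference in spread was not tested. Mmp19, a secreted enzyme that cleaves basement membrane proteins, stood at 4.49, 4.53 and 4.82 in the IK group and at 4.31, 4.62 and 4.91 in the SC group. Its difference of 0.02 (SE 0.09, limma, adjusted p = 0.952) was the smallest of the 9. Exons of Mmp19 overlap those of Tmem198b on the opposite strand in GENCODE M21, and reads of the pair cannot be told apart here because strand handling is not given in the sources used.

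Among the inhibitors, Timp1 stood at 5.42, 5.70 and 6.01 in the IK group and at 5.48, 5.86 and 6.25 in the SC group (difference -0.12, SE 0.13, limma, adjusted p = 0.686). The Timp1 difference was -0.19 without SC replicate 6 and -0.03 without SC replicate 5. Timp2 was the steadiest of the 9, at 8.87, 8.95 and 9.03 in the IK group and at 8.89, 8.96 and 9.09 in the SC group. The Timp2 difference was -0.04 (95% interval -0.12 to 0.05, limma, adjusted p = 0.681), and it was -0.02 without SC replicate 1. Its 12 tumors lay within a 1.16-fold span, and its residual SD of 0.07 was smaller than that of most tested genes, with only 15.4% below it. Timp3, which binds to the matrix and also inhibits ADAM sheddases, stood at 4.97, 5.08 and 5.68 in the IK group and at 4.11, 5.44 and 6.00 in the SC group. The Timp3 difference was -0.11 (SE 0.27, limma, adjusted p = 0.872), and SC replicate 6 was the lowest of the 12 tumors at 4.11. Without that tumor the difference was -0.34, and without SC replicate 5 it was 0.03. Timp3 overlaps exons of Syn3 on the opposite strand, and Syn3 was not analysed here.

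**Figure D2:**
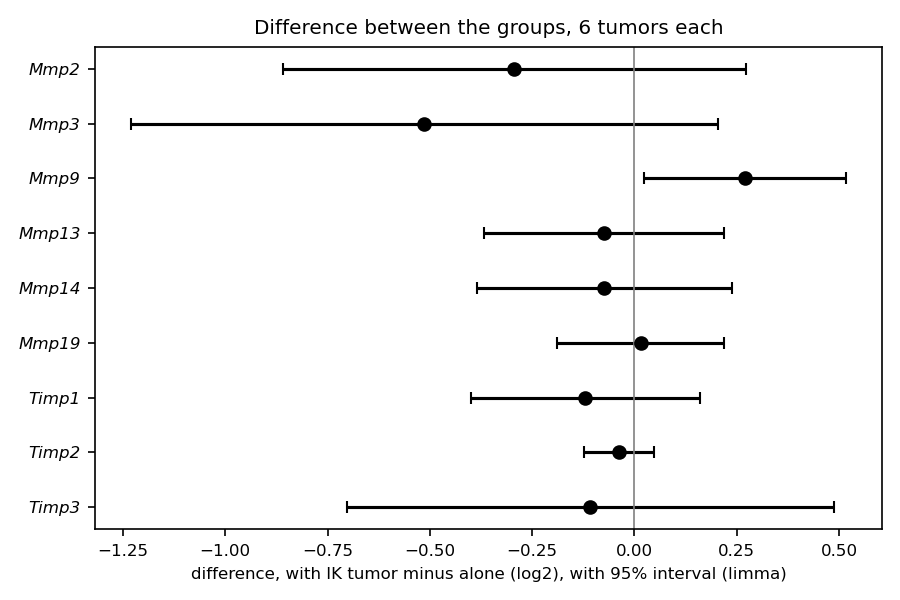
Difference between the group means (IK minus SC, log2) of each gene with its 95% interval from limma, 6 tumors per group. The interval of Mmp9 (0.02 to 0.52) lies above 0 before adjustment, the other 8 span 0, and Timp2 has the narrowest one.

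Tumors differed far more in some of these genes than in others. Mmp3, Timp3 and Mmp2 had residual SDs of 0.64, 0.53 and 0.51 log2, larger than in 97.2%, 95.4% and 94.9% of the tested genes. The median over all tested genes was 0.11. SC replicate 5 was the highest of the 12 tumors in 6 genes (Mmp2, Mmp3, Mmp14, Mmp19, Timp1 and Timp3), while SC replicate 6 was the lowest in 4 (Mmp2, Mmp9, Mmp14 and Timp3). For Mmp2, Mmp14, Mmp19 and Timp3 both the highest and the lowest of the 12 tumors were in the SC group.

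Over all 12 tumors, 6 genes rose and fell together and the pairs of the other 3 did not pass. Of the 36 gene pairs, 15 passed (permutation test of Pearson's r, 100000 resamples, Benjamini-Hochberg over the 36), each with a positive r. These were the 15 pairs among Mmp2, Mmp3, Mmp14, Mmp19, Timp1 and Timp3, with r from 0.77 to 0.97. The other 21 pairs, each of which includes Mmp9, Mmp13 or Timp2, had r from -0.35 to 0.42, and 0 of them passed (lowest adjusted p = 0.396). The genes of a pair share library and scaling in each tumor. The share of passing pairs among other tested genes was not computed, so these counts have no background beside them. Mmp3 and Mmp13, the chromosome 9 pair with AP-1 and TATA letters, had r = 0.05 (rho = 0.13, adjusted permutation p = 0.903 and 0.918), with 0.53 within the 6 IK tumors and -0.54 within the 6 SC tumors. That difference between the groups was not tested. Without IK replicate 2 and SC replicate 5, the tumors farthest from the Mmp3 median, r was 0.51 (permutation test, adjusted p = 0.261).

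Mmp14 and Timp3, a membrane protease and a matrix-bound inhibitor, had the highest r of the 36 (r = 0.97, the smallest possible permutation p of 1e-05, adjusted p = 9e-05; rho = 0.94, adjusted permutation p = 0.00072). Without SC replicates 5 and 6, the tumors farthest from the Mmp14 median, r was 0.94. Mmp2 and Mmp3 followed (r = 0.96, permutation p = 1e-05, adjusted p = 9e-05; rho = 0.92, adjusted permutation p = 0.00156), with r = 0.93 without IK replicate 2 and SC replicate 5. Mmp2 with Mmp14, the activated and the activating protease, had r = 0.92 (permutation p = 1e-05, adjusted p = 9e-05; rho = 0.85, adjusted permutation p = 0.00498) and 0.90 without those tumors. Mmp2 with Timp2, the third partner of that activation complex, had r = 0.31 (permutation test, adjusted p = 0.558; rho = 0.26, adjusted p = 0.681), but 0.74 without the same pair of tumors (permutation test, adjusted p = 0.0486).

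Each of the 15 pairs kept a positive r within both groups, from 0.42 to 0.97 in the 6 IK tumors and from 0.82 to 0.99 in the 6 SC tumors. With values centred on the group means 15 pairs passed. By Spearman's rho, 12 passed. Without SC replicate 5, 11 of the 15 passed. Without the 2 tumors farthest from the median of the first gene of each pair, 9 of the 15 passed. Of the 6 pairs lost, 4 held Mmp19 (with Mmp2, Mmp3, Mmp14 and Timp1) and 2 held Timp1 (with Mmp3 and Mmp14). Mmp2 with Mmp19 went from r = 0.77 (rho = 0.68, adjusted permutation p = 0.00738 and 0.0512) to 0.50, and Mmp3 with Timp1 from 0.83 to 0.67. Mmp19 with Timp3 kept its call. Under the same setting 2 pairs outside the 6 genes passed, Mmp2 with Timp2 and Mmp9 with Timp2. Mmp9 with Timp2 went from r = -0.35 to -0.74 without IK replicate 1 and SC replicate 6 (permutation test, adjusted p = 0.0481). The division into 6 and 3 genes is therefore that of all 12 tumors.

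**Figure D3:**
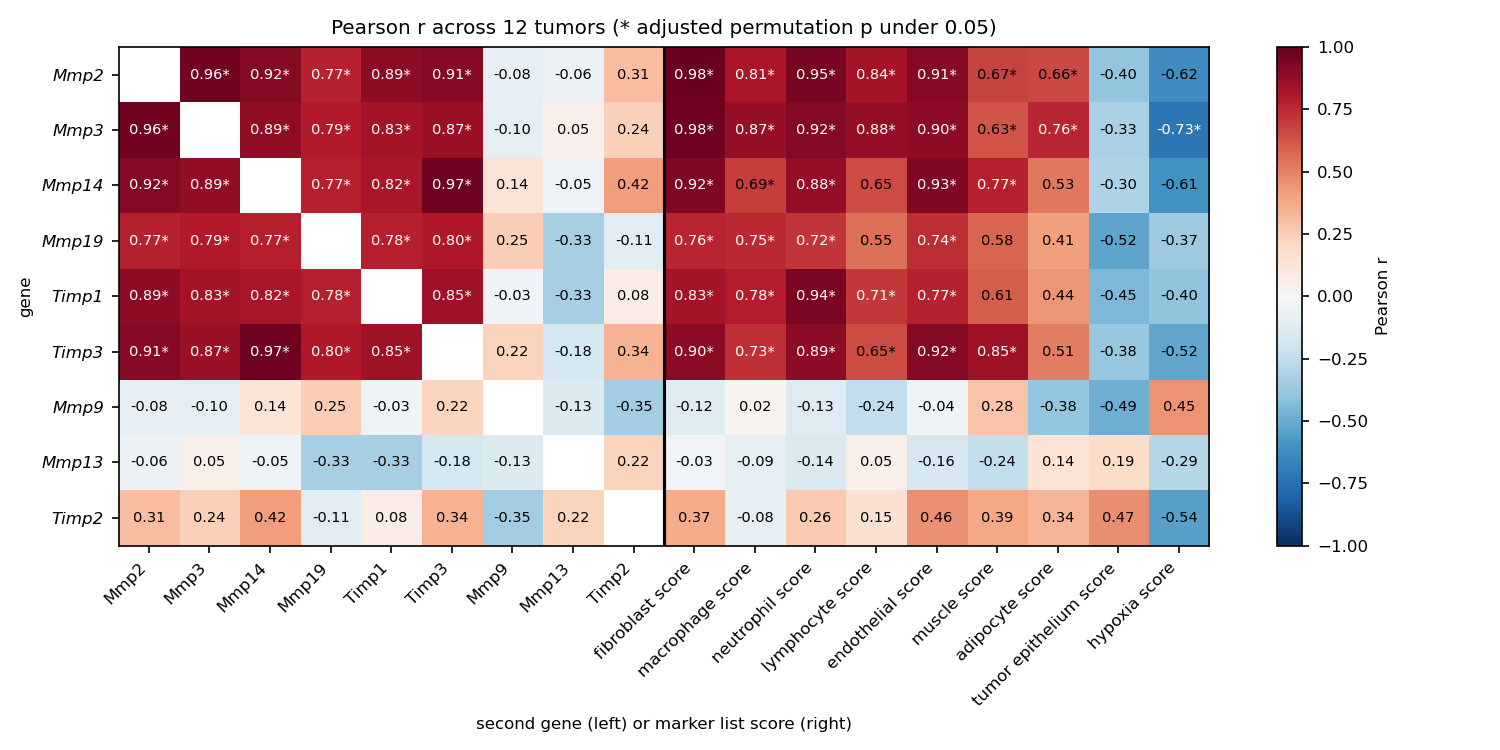
Pearson's r across the 12 tumors for each pair of the 9 genes (left) and for each gene with 9 marker list scores (right), where a score is the mean log2 CPM of a list and stars mark an adjusted permutation p under 0.05. The 6 upper rows are red against one another, and Mmp9, Mmp13 and Timp2 carry no star.

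The marker lists show which cell types varied alongside. The tumor epithelium list (Krt8, Krt18, Epcam, Cdh16, Pax8 and Cdh1) was present in full, with scores of 7.18 to 7.47, and none of the 9 genes passed with it (r from -0.52 to 0.47). The fibroblast score (9 genes, among them Col1a1, Dcn and Pdgfra) spanned 6.66 to 7.91 in the IK group and 6.70 to 8.24 in the SC group. It passed with 6 of the 9 genes, the 6 that varied together, and with 4 of these without SC replicates 1 and 5. The calls lost were Timp1 (r = 0.83, then 0.68) and Mmp19 (0.76, then 0.64). For Mmp2 the r was 0.98 (permutation p = 1e-05, adjusted over the 81 gene and list pairs p = 0.000203; rho = 0.95, adjusted permutation p = 0.000405), and 0.96 without SC replicates 1 and 5. For Mmp3 it was 0.98 (same adjusted p; rho = 0.97), and 0.97 without those tumors. Timp2 (r = 0.37), Mmp9 (-0.12) and Mmp13 (-0.03) did not pass. Without SC replicates 1 and 5 their r was 0.21, 0.15 and 0.50, and none passed (permutation test, adjusted p = 0.641, 0.726 and 0.262). In bulk tumors, more cells of a type and more RNA per cell cannot be told apart.

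**Figure D4:**
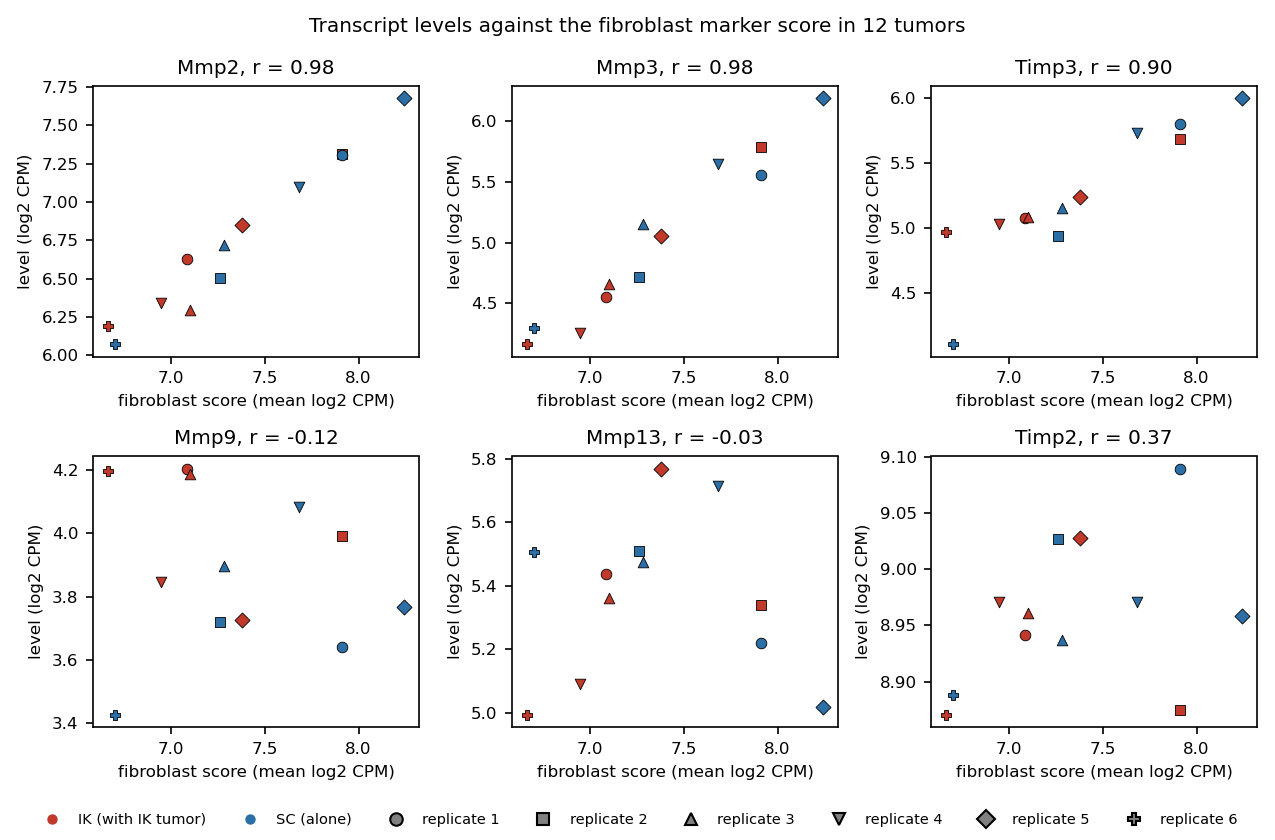
Level of 6 genes (log2 CPM, y axes differ) against the fibroblast marker score (mean log2 CPM of 9 genes), 1 point per tumor, colored by group. Mmp2 (r = 0.98), Mmp3 (0.98) and Timp3 (0.90) climb with the score in both groups, while Mmp9 (-0.12), Mmp13 (-0.03) and Timp2 (0.37) scatter.

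The fibroblast score was not the only one to vary with these 6 genes. All 6 also passed with the endothelial, macrophage and neutrophil scores, with r from 0.74 to 0.93, 0.69 to 0.87 and 0.72 to 0.95. Without the 2 tumors farthest from each score's median, 4 genes passed with the endothelial score, 1 with the macrophage score (Mmp3) and 5 with the neutrophil score. Timp1 had its highest r with neutrophil genes (r = 0.94, adjusted permutation p = 0.000304; rho = 0.88, adjusted permutation p = 0.00405). It remained at 0.89 without IK replicate 2 and SC replicate 5. Only 4 of the 9 neutrophil genes were in the table, and the defining marker Ly6g was not among them. Summed levels of these 4 were 23.0 to 46.0 CPM in the IK group and 25.3 to 53.5 in the SC group. Markers of other cells also differed between the groups before adjustment. Of 11 lymphocyte markers, 10 were lower in the IK group at an unadjusted limma p under 0.05, against 5.62% of tested genes. Their median difference was -1.66, and 0 passed adjusted. Markers of a list can vary together across tumors, so these are not independent results. Gzmb and Prf1 had IK medians of -1.78 and -1.46 log2 CPM, below the filter level of 0, and SC medians of 0.47 and 1.22. Nkg7 and Ncr1 had IK medians of -0.03 and -0.02, also below 0, and lowest SC values of 0.61 and 0.63. For these markers, all among the 10, passing the filter rested mainly on SC tumors. The summed level of the 11 markers was 15.7 to 103 CPM in the IK group and 22.1 to 135 in the SC group. Mmp9, which differed most between the groups for its error, had r = -0.24 with the lymphocyte score (rho = -0.20, adjusted permutation p = 0.532 and 0.630). With values centred on the group means this r was 0.15. Mmp9 passed with 0 of the 9 scores. Its lowest r was -0.49 with tumor epithelium (rho = -0.62, adjusted permutation p = 0.178 and 0.0746). Its highest r was 0.45 with hypoxia (adjusted permutation p = 0.230), and with the neutrophil score r was -0.13 (adjusted permutation p = 0.751). Without IK replicates 1 and 6 the r of Mmp9 with hypoxia was -0.17. It was 0.63 within the IK tumors and -0.55 within the SC tumors. The hypoxia list had higher means in the IK group in 8 of 9 genes (median 0.34), against 53.3% of all tested genes. Of these, 4 had an unadjusted limma p under 0.05, against 5.86% of all tested genes. By hypoxia score, IK replicates 1 and 6 (6.73 and 6.84) lay above every SC tumor (5.32 to 6.05). The other IK tumors lay within the SC range. The 3 tested adipocyte markers were lower in the IK group (median -1.15). Of these, 2 had an unadjusted limma p under 0.05, against 5.62% of all tested genes. Adipoq had an IK median of -0.60, below the filter level. Lymphocyte scores passed with 4 genes, muscle scores with 4 and adipocyte scores with 2 (Mmp2 and Mmp3). Without the 2 farthest tumors these counts were 1, 2 and 0. Mmp3 passed with the hypoxia score in the negative direction (r = -0.73, adjusted permutation p = 0.0187; rho = -0.83, adjusted permutation p = 0.00673), and r was -0.79 without IK replicates 1 and 6. Mmp2 and Timp3 did not pass by r (-0.62 and -0.52, adjusted permutation p = 0.0696 and 0.164). Mmp2 passed by rho (-0.75, adjusted permutation p = 0.0261). Without IK replicates 1 and 6, Mmp2 and Timp3 both passed (r = -0.78 and -0.77, adjusted permutation p = 0.0363 for each). Several scores passed with the same genes, and the part of any 1 cell type, or of hypoxia, in the levels and in the group differences was not tested. Of the 81 relations 35 passed, and 22 did without SC replicate 5. The share that other tested genes would give with these scores was not computed.

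With the fibroblast score as a covariate, the group differences of Mmp2, Mmp14, Timp1 and Timp3 turned from negative to 0.05, 0.10, 0.02 and 0.23 (limma, adjusted p = 0.840, 0.595, 0.961 and 0.587). Mmp3 moved to -0.09 (limma, adjusted p = 0.784). Mmp9 was as large, at 0.28 (limma, adjusted p = 0.545). Mmp19 went from 0.02 to 0.12, and Mmp13 and Timp2 stood at -0.09 and -0.02 (limma, adjusted p = 0.598, 0.867 and 0.876). The score itself had r from 0.83 to 0.98 with Mmp2, Mmp3, Mmp14, Timp1 and Timp3. This fit therefore takes out much of the variation of these genes. The part of fibroblasts in the group differences was not tested.

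The genes of most similar pattern were taken by Pearson's r over the 12 tumors among all tested genes, as a description with no test. For Mmp2 they were Col3a1 (r = 0.98, rho = 0.97), Htra1 (0.98, 0.99) and Dcn (0.98, 0.97), which encode a fibrillar collagen, a secreted serine protease and the proteoglycan decorin. For Mmp3 they were Panx1 (r = 0.99), Lum (0.98), the gene of another collagen-binding proteoglycan, and Traf3ip3 (0.98). Col3a1, Dcn and Lum are also in the fibroblast list. Mmp14 was closest to Ncam1 (r = 0.99), Ppic (0.98) and Ptgfrn (0.98), Timp3 to Chst11 (0.98), Mmp14 (0.97) and Scn7a (0.97), Timp1 to St3gal4 (0.95), S100a8 (0.94) and Ecscr (0.93), and Mmp19 to Gda (0.97), Ccl6 (0.94) and Ksr1 (0.93). S100a8 is 1 of the 4 neutrophil genes above. The other 3 genes had looser neighbors. Those of Mmp9 included C9orf72 (r = 0.90) and Gm12799 (0.89). Timp2 was closest to Tmem254c (0.89), Sytl2 (0.87) and Trabd2b (0.86), and Mmp13 to Exo5 (0.82), Ccz1 (0.81) and Gcdh (0.80).

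Protease to inhibitor ratios within a tumor are given as log2 ratios of CPM, with no test. The Mmp9 to Timp1 ratio was -2.01, -1.71 and -1.23 in the IK group (lowest, median, highest) and -2.48, -1.97 and -1.80 in the SC group, a mean difference of 0.39. IK replicates 1, 3 and 6 lay above every SC tumor, and the other 3 lay within the SC range. The Mmp3 to Timp1 ratio went the other way, at -1.54, -0.93 and -0.21 in the IK group and -1.19, -0.51 and -0.06 in the SC group (mean difference -0.39), with 1 of 6 IK tumors above the SC median. The Mmp2 to Timp2 ratio followed Mmp2, since Timp2 hardly varied, from -2.82 in SC replicate 6 to -1.28 in SC replicate 5. Mmp14 to Timp3, whose genes varied together, held between 1.91 and 2.30 in the IK group and between 1.81 and 2.76 in the SC group (mean difference 0.03). SC replicate 6, the tumor with little Timp3, had the highest value.

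**Figure D5:**
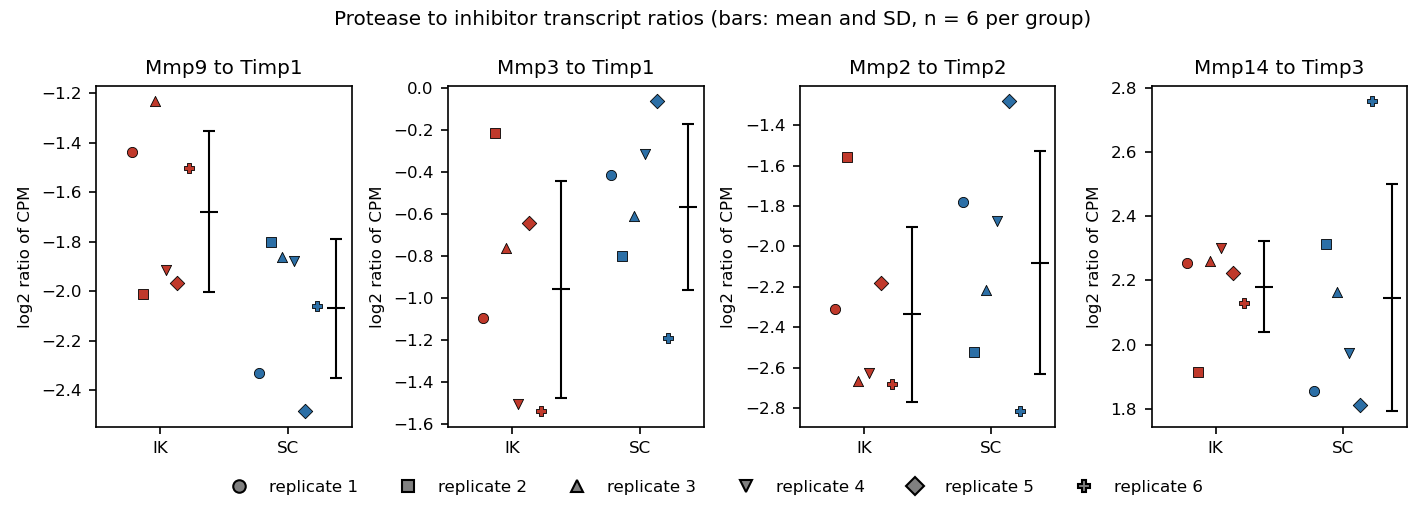
Log2 ratio of CPM of a protease to an inhibitor transcript in each tumor by group, with the mean and SD (n = 6 per group). In the Mmp9 to Timp1 panel 3 IK tumors lie above every SC tumor, and in the Mmp14 to Timp3 panel SC replicate 6 stands at 2.76.

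Other genes of the system were read from the same limma fit, and 0 genes of any list passed. Of 18 further MMP and TIMP genes, 11 were tested (Mmp1a, Mmp1b, Mmp7, Mmp8, Mmp20, Mmp21 and Timp4 were not analysed here). Their median difference was 0.08, and 6 of 11 had higher means in the IK group, against 53.3% of all tested genes. Mmp12, the macrophage elastase, differed by 0.19 (SE 0.18), Mmp11, a stromelysin of tumor stroma, by -0.21 (SE 0.13), and Mmp23 by -0.45 (SE 0.24). Mmp10, named after its value was seen, was the 1 gene of this list with an unadjusted p under 0.05 (difference 0.20, SE 0.08, limma, adjusted p = 0.432).

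Of 14 tested genes of proenzyme activation and inhibition, 9 had higher means in the IK group (median 0.04), against 53.3% of all tested genes. The urokinase gene Plau, which starts the plasmin cascade that activates several pro-MMPs, differed by 0.05 (SE 0.09), and its receptor gene Plaur by 0.12 (SE 0.08). Reck, a membrane inhibitor of MMPs, differed by -0.26 (SE 0.27). Bsg, whose protein EMMPRIN induces MMPs in fibroblasts, differed by 0.12 (SE 0.09), and Cd44, which can hold MMP9 at the cell surface, by -0.10 (SE 0.06). Lcn2, whose product binds MMP9, stood at 5.18 to 5.54 in the IK group and at 4.69 to 5.50 in the SC group. The Lcn2 difference was 0.31 (SE 0.13, limma, adjusted p = 0.432), the 1 gene of this list with an unadjusted p under 0.05.

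Matrix substrates had lower means in the IK group in 17 of 21 genes (median -0.20), against 46.7% of all tested genes. Of these 21, 0 had an unadjusted limma p under 0.05, against 11.5% of all tested genes. Genes of such a list can vary together across tumors, so the counts are not of independent results. Col1a1, Col1a2, Col3a1, Dcn and Lum stand in this list and in the fibroblast list. Col1a1 differed by -0.37 (SE 0.27), Sparc by -0.20 (SE 0.19) and Col4a1 by -0.05 (SE 0.10). Fn1, the fibronectin gene, differed by 0.26 (SE 0.20) and Spp1, the osteopontin gene, by 0.15 (SE 0.07). The 7 sheddases had a median of 0.00, with Adam17 at 0.00 (SE 0.03) and Adam10 at 0.08 (SE 0.04). Among 14 tested inducers of MMP and TIMP transcription, 11 had higher means in the IK group (median 0.10), against 53.3% of all tested genes. Il1b differed by 0.48 (SE 0.23), Fosl1 by 0.39 (SE 0.23), Fos by 0.11 (SE 0.18), Jun by 0.07 (SE 0.08) and Tgfb1 by -0.05 (SE 0.04). Il1a, named after its value was seen, was the 1 inducer with an unadjusted p under 0.05 (difference 0.57, SE 0.26, limma, adjusted p = 0.432). Its level was close to the filter level of 0, at -0.11 to 0.94 log2 CPM in the IK group and -1.21 to 0.16 in the SC group.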

How the data were processed

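RNA of 12 whole tumors was sequenced from Illumina TruSeq libraries, per the labels' protocols. Build mm9 and the tools TopHat 1.4.1, CASAVA 1.8.2, limma and HTSeq are listed per the submitters' processing notes; settings and strand handling are not given in the sources used here. The authors deposited 1 table of log2 values, which have the form of log2 CPM with 0.5 reads added: 100% of values gave whole reads within 0.001, with 53312559 to 66142468 reads per tumor. Symbols came from GENCODE M21 by identifier (14004 of 14496 genes).

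Genes with a log2 value of at least 0 in at least 6 tumors were kept (14008) and tested with limma 3.58.1 in R 4.3.3 (empirical Bayes with trend, two-sided, Benjamini-Hochberg, threshold 0.05). The fit was tested on simulated data. The genes described, the lists and the tests were chosen with earlier results of these data known. Named genes were the 9, a fixed set of related genes and the 3 genes of highest r with each of the 9. Some genes that this rule names are not reported here. No library's counts repeated those of another in its group: across the 30 within-group pairs, chi-square divided by its degrees of freedom was 13.5 to 169. This compares counts with sampling error only, so it cannot show that libraries came from different tumors or mice. Keratinocyte markers were absent from the table.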

Additional observations from a re-analysis of the deposited data

How the results depend on the processing

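For the 9 genes, 6 of the settings (filters, variance estimates, the replicate block and the exact test) cannot move a difference. Of the 153 values under the other settings, 143 kept their direction and 10 reversed; under no setting did a gene of the 9 pass (limma, lowest adjusted p = 0.125). Besides the reversals with the fibroblast covariate (Mmp2 0.046, Mmp14 0.10, Timp1 0.019 and Timp3 0.23), Mmp19 turned to -0.013 with sample weights. With single tumors left out, Mmp14 ranged from -0.19 to 0.0018, Mmp19 from -0.037 to 0.082, Timp3 from -0.34 to 0.034 and Timp2 from -0.056 to -0.015. Ratio differences also changed sign for Mmp13 to Timp1 (-0.12 to 0.13), Mmp14 to Timp2 (-0.13 to 0.04) and Mmp14 to Timp3 (-0.03 to 0.16). Over all tested genes, 0 passed in limma, but sample weights gave 134 higher and 411 lower in the IK group, a fit without trend 1 higher, and leaving out single tumors 0 to 25 higher and 0 to 146 lower, the highest without IK replicate 2. Of the 81 gene and list relations, 20 passed without the 2 tumors farthest from the median, and 22 to 42 with single tumors left out, while gene pairs gave 11 to 16; leaving out single tumors here was chosen after seeing the data. A replicate block left Mmp9 at 0.27 and changed no adjusted call, with an unadjusted limma p of 0.0701 (adjusted p = 0.459). The labels do not say that the numbers pair tumors, so they were not treated as pairs. Deviations of same-numbered tumors from their group means had r from -0.31 (replicate 1) to 0.45 (replicate 6). The cause of these shifts was not tested.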
